A study of Mus musculus with 36 samples.

Results

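The genes described here make or control cholesterol, and they were followed through 36 brain arrays from mice given histone deacetylase (HDAC) inhibitors. They are Hmgcs1, Idi1, Sqle, Lss, Cyp51, Dhcr7 and Insig1, 7 genes in all. They were chosen by name, with earlier results of these data known, and their probes were found by matching symbols without regard to case. Of the 7, 6 genes were measured, by 12 of the 45281 probes. Hmgcs1, which makes HMG-CoA at the entry to the mevalonate pathway, was not analysed here. None of the measured members takes up cholesterol, so they were read as synthesis enzymes and 1 regulator rather than as uptake genes.

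Cells build cholesterol from acetyl-CoA, through mevalonate, isoprenoid diphosphates, squalene and lanosterol. When membrane sterol is low, the transcription factor SREBP-2 is cut free and raises the genes of this route together. Insig1, itself a target of SREBP-2, holds that factor back in the endoplasmic reticulum when sterol is plentiful. The adult brain makes its own cholesterol, because plasma lipoproteins do not cross the blood-brain barrier in any quantity. Oligodendrocytes, which build myelin, and astrocytes, which supply neurons, are the cells best known for it.

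Adult male C57BL/6J mice received daily intraperitoneal injections for 10 days, and tissue was taken 1 h after the last. The groups received CI-994 at 10 mg/kg, SAHA at 25 mg/kg, Cpd-60 at 45 mg/kg, or the vehicle of DMSO, PEG-400 and saline alone. Cpd-60 is described by the study as selective for HDAC1 and HDAC2, SAHA is the broad inhibitor vorinostat, and CI-994 inhibits class I HDACs. Hippocampus (HIP), nucleus accumbens (NAc) and prefrontal cortex (PFC) were profiled on Illumina MouseWG-6 BeadChips. Each of the 12 groups of treatment and region had 3 arrays, each array carried RNA pooled from 2 mice, and the 3 regions of a pool came from the same mice. Values are log2 intensities after quantile normalization, and the background signal was not subtracted. A change in RNA, where there was one, therefore tends to appear smaller than it was.

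Between 31.9% and 43.3% of probes per array had a detection p of at most 0.01, and arrays of a group correlated at 0.970 to 0.994. Known markers followed the region labels. All 6 striatal markers were higher in NAc than in PFC under vehicle, 3 of 4 cortical markers were lower in NAc and in HIP than in PFC, and 2 of 3 tested hippocampal markers were higher in HIP than in PFC. Choroid plexus markers were also higher in HIP than in PFC, in 4 of 5 cases. Each BeadChip held 1 region only, so chip and region cannot be told apart. For 1 Cpd-60 pool the sample description and the title named different mice, and the title was followed.

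Promoter sequences of 4 members are shown to let the start regions of the regulator and of 3 enzymes be compared. No window was found for Sqle. RefSeq promoter windows were found for 6 of the 7 members (GRCm38.p6). Each stretch below is read on the gene's strand and ends at the base before the gene's annotated start. They are Insig1 at chr5:28071162-28071411 (plus strand), Cyp51 at chr5:4104698-4104947 (minus strand), Lss at chr10:76531355-76531564 (plus strand) and Dhcr7 at chr7:143822917-143823166 (plus strand). Capitals mark matches, on either strand, to the NF-Y box CCAAT or the Sp1 box GGGCGG. NF-Y and Sp1 are the general factors known to work beside SREBP-2.
Insig1 promoter: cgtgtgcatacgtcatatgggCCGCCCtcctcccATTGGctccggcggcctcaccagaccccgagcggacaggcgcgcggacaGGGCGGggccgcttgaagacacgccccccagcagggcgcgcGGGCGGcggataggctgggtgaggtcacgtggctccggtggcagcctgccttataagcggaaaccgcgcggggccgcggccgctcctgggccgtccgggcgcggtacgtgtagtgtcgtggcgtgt
Cyp51 promoter: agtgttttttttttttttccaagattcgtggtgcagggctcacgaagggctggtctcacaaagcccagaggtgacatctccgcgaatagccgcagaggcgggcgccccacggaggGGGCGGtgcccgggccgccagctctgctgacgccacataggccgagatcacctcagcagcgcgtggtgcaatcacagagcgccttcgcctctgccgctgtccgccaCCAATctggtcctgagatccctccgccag
Lss promoter: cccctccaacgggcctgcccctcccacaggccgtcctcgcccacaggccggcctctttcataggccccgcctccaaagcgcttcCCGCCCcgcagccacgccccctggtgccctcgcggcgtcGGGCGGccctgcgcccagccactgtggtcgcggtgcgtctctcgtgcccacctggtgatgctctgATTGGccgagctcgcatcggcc
Dhcr7 promoter: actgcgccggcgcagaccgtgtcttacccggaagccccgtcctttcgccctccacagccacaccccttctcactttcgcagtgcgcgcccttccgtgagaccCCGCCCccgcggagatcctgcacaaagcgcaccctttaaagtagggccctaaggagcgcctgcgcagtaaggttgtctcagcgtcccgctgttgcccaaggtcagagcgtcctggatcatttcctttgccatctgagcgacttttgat

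An NF-Y box was found in the 300-base windows of all 6 members with a window, and in 37.4% of the 32851 promoter windows in the table. For Dhcr7 it lay only in the window of another annotated start, not in the stretch printed. A member was counted if any of its windows matched, and Dhcr7 had 3 windows, while the shares of all windows count each window singly. A Sp1 box was found in the windows of all 6 members and in 35.7% of all windows. The sterol regulatory element core TCACNCCAC was found in 1 of the 6, Hmgcs1, where it began 137 bases before the start, and in 1.24% of all windows. It was found in 0 of 10 other synthesis genes with a window. These are matches of letters and do not show that a factor was bound, and a missing match does not show that a site is absent.

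Among the enzymes, Sqle gave the clearest region pattern. Sqle encodes squalene epoxidase, which adds oxygen to squalene and is a slow step of the route (chr15:59315092-59331193). In vehicle-treated mice its probe ILMN_2737163 read 9.71, 9.80 and 9.44 in the 3 PFC pools, 9.37, 9.24 and 9.06 in HIP, and 9.02, 8.83 and 8.92 in NAc, on the log2 scale. All 3 PFC arrays were above all HIP arrays, and all HIP arrays were above all NAc arrays. Separations of 3 arrays from 3 were common, being seen for 16.8% of all probes with NAc below PFC, 21.6% with HIP below PFC and 14.1% with HIP above NAc. NAc was lower than PFC by 1.66-fold (log2 difference -0.73, SE 0.12, limma adjusted p = 3.38e-05), and HIP was lower than PFC by 1.34-fold (-0.43, SE 0.12, adjusted p = 0.0102). The HIP call was lost without vehicle pool 2 (adjusted p = 0.138). The HIP minus NAc difference of 0.31 did not pass (adjusted p = 0.088).

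Over all 4 treatments Sqle ranged from 9.43 to 9.80 in the 12 PFC arrays (median 9.68), from 9.06 to 9.52 in HIP (median 9.24), and from 8.58 to 9.09 in NAc (median 8.87). The PFC and NAc ranges did not touch, and NAc lay wholly below PFC for 4.21% of all probes. Averaged over the treatments, Sqle was 1.72-fold lower in NAc than in PFC (adjusted p = 6.61e-12), 1.29-fold lower in HIP than in PFC (adjusted p = 6.62e-06), and 1.33-fold higher in HIP than in NAc (adjusted p = 1.69e-06). The order PFC, HIP, NAc held in 12 of 12 pools, each compared within its own mice, and 5.2% of all probes were higher in HIP than in NAc in all 12 pools. The difference from PFC ran from -1.10 to -0.34 in NAc and from -0.56 to -0.04 in HIP. Of all 26594 probes tested, 8.48% were lower in NAc than in PFC in all 12 pools, and 12.5% were lower in HIP. A second Sqle probe, ILMN_2600348, gave the same order of means under each of the 4 treatments and was 1.59-fold lower in NAc than in PFC (adjusted p = 2.62e-13). A further Sqle probe was not above background on any array.

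Cyp51, the lanosterol 14-alpha-demethylase that takes the route from lanosterol into the later sterols (chr5:4080674-4104697, minus strand), followed the same order at smaller size. Under vehicle it read 8.38, 8.55 and 8.24 in PFC, 8.06, 8.13 and 8.07 in HIP, and 8.08, 7.86 and 7.76 in NAc. The 3 PFC arrays were above every array of the other regions, while HIP and NAc overlapped. NAc was lower than PFC by 1.41-fold (log2 difference -0.49, SE 0.12, adjusted p = 0.00362), a call lost without vehicle pool 2 (adjusted p = 0.111). The HIP minus PFC difference of -0.31 did not pass under vehicle (SE 0.12, adjusted p = 0.0652). With the 12 arrays of each region, Cyp51 was lower in NAc (-0.54, adjusted p = 1.12e-08) and in HIP (-0.27, adjusted p = 4.04e-04) than in PFC, and was lower than PFC in 12 of 12 pools for each region. HIP was above NAc by 0.28 (adjusted p = 4.16e-04), in 9 of 12 pools.

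Lss, the lanosterol synthase that folds squalene epoxide into the first sterol (chr10:76531565-76557139), lay closer to background and was detected on 31 of the 36 arrays. Under vehicle it read 6.81, 7.15 and 6.97 in PFC, 6.94, 6.96 and 6.91 in NAc, and 6.84, 6.80 and 6.83 in HIP, and no region difference passed (smallest adjusted p = 0.233, HIP minus PFC). Averaged over treatments it was lower than PFC in HIP (-0.26, SE 0.04, adjusted p = 1.34e-05) and in NAc (-0.17, SE 0.04, adjusted p = 0.00196). It was lower in HIP than in PFC in 10 of 12 pools, and lower in NAc than in PFC in 11 of 12. With background correction by neqc these differences were -0.70 and -0.43. Unlike Sqle and Cyp51, Lss was not higher in HIP than in NAc (-0.09, adjusted p = 0.121).

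Dhcr7, the 7-dehydrocholesterol reductase of the last step (chr7:143823167-143848410), did not share that order under vehicle. It read 6.95, 6.98 and 6.89 in PFC, 7.02, 7.01 and 7.25 in NAc, and 7.31, 7.13 and 6.98 in HIP. The NAc arrays were all above the PFC arrays, as for 15.3% of all probes, the HIP and PFC arrays overlapped, and no vehicle difference passed (HIP minus PFC 0.20, adjusted p = 0.223). Averaged over treatments Dhcr7 was higher in HIP than in PFC by 0.15 (SE 0.05, adjusted p = 0.0227), in 9 of 12 pools. That call was lost when any of Cpd-60 pool 1, vehicle pool 1, SAHA pool 1 or CI-994 pool 2 was left out (differences from 0.12 to 0.13), and with the BeadChip as a random block (adjusted p = 0.113). NAc differed from PFC by 0.04 (95% confidence interval -0.07 to 0.15). The order of the group means changed with treatment: under SAHA it was PFC, HIP, NAc (7.11, 7.10 and 7.01), under Cpd-60 it was HIP, NAc, PFC as under vehicle, and under CI-994 it was HIP, PFC, NAc.

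Idi1, the isopentenyl diphosphate isomerase that makes the second isoprenoid building block (chr13:8885606-8892396), was near background throughout. Its single probe was detected on 2 of 36 arrays, both vehicle, 1 in PFC and 1 in NAc. Its values ran from 6.49 to 6.78 in PFC, from 6.48 to 6.70 in NAc and from 6.46 to 6.73 in HIP, and these ranges overlapped. No fold is given, because most groups had only a bound.

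Insig1 (chr5:28071412-28078662), the regulator, had the same order as Sqle and Cyp51 at its brightest probe, ILMN_1245272. Under vehicle that probe read 7.45, 7.50 and 7.41 in PFC, 7.18, 7.22 and 7.30 in HIP, and 7.10, 7.25 and 7.03 in NAc. All PFC arrays were above all arrays of the other regions. NAc was lower by 1.25-fold (-0.32, SE 0.07, adjusted p = 0.00227) and HIP by 1.16-fold (-0.22, SE 0.07, adjusted p = 0.0357). The HIP call was lost without vehicle pool 1 (adjusted p = 0.216) or vehicle pool 2 (adjusted p = 0.215), with the BeadChip as a random block (adjusted p = 0.0553) and with no detection filter (adjusted p = 0.0502). With neqc the vehicle differences were -0.64 and -0.41. Averaged over treatments the values were -0.35 and -0.23, and the probe was lower than PFC in 12 of 12 pools for NAc and for HIP. HIP was above NAc by 0.12 (adjusted p = 0.0112), a call lost without vehicle pool 3 (adjusted p = 0.0507) and with the BeadChip as a random block (adjusted p = 0.0752).

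The probes of Insig1 did not give 1 answer. Probe ILMN_2606693 ran the same way but less far, with averaged differences from PFC of -0.21 in NAc (adjusted p = 7.17e-05) and -0.10 in HIP (adjusted p = 0.0281). Probe ILMN_2895388 ran the other way. It was not above background on any of the 12 PFC arrays, and was detected on 7 of 12 NAc arrays and 11 of 12 HIP arrays. Its level in HIP was at least 1.22-fold higher than in PFC, and no fold is given for NAc. It passed the filter through the regions where it was high, so no p is given for these differences. Over the 36 arrays the levels of ILMN_2895388 and ILMN_1245272 correlated at r = -0.55, and at -0.28 once group means were removed. For ILMN_1245272 and ILMN_2606693 these values were 0.65 and 0.05, and for the Sqle probe pair 0.92 and 0.60. Correlations of levels carry the region differences themselves. The remaining Insig1 probe, ILMN_2620965, and the other Lss probe, ILMN_2444540, were detected on 0 of 36 arrays. These correlations carry no p, since arrays share mice, chips and normalization. The probe sequences were not used here, so which transcripts each Insig1 probe reads was not tested.

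**Figure D1:**
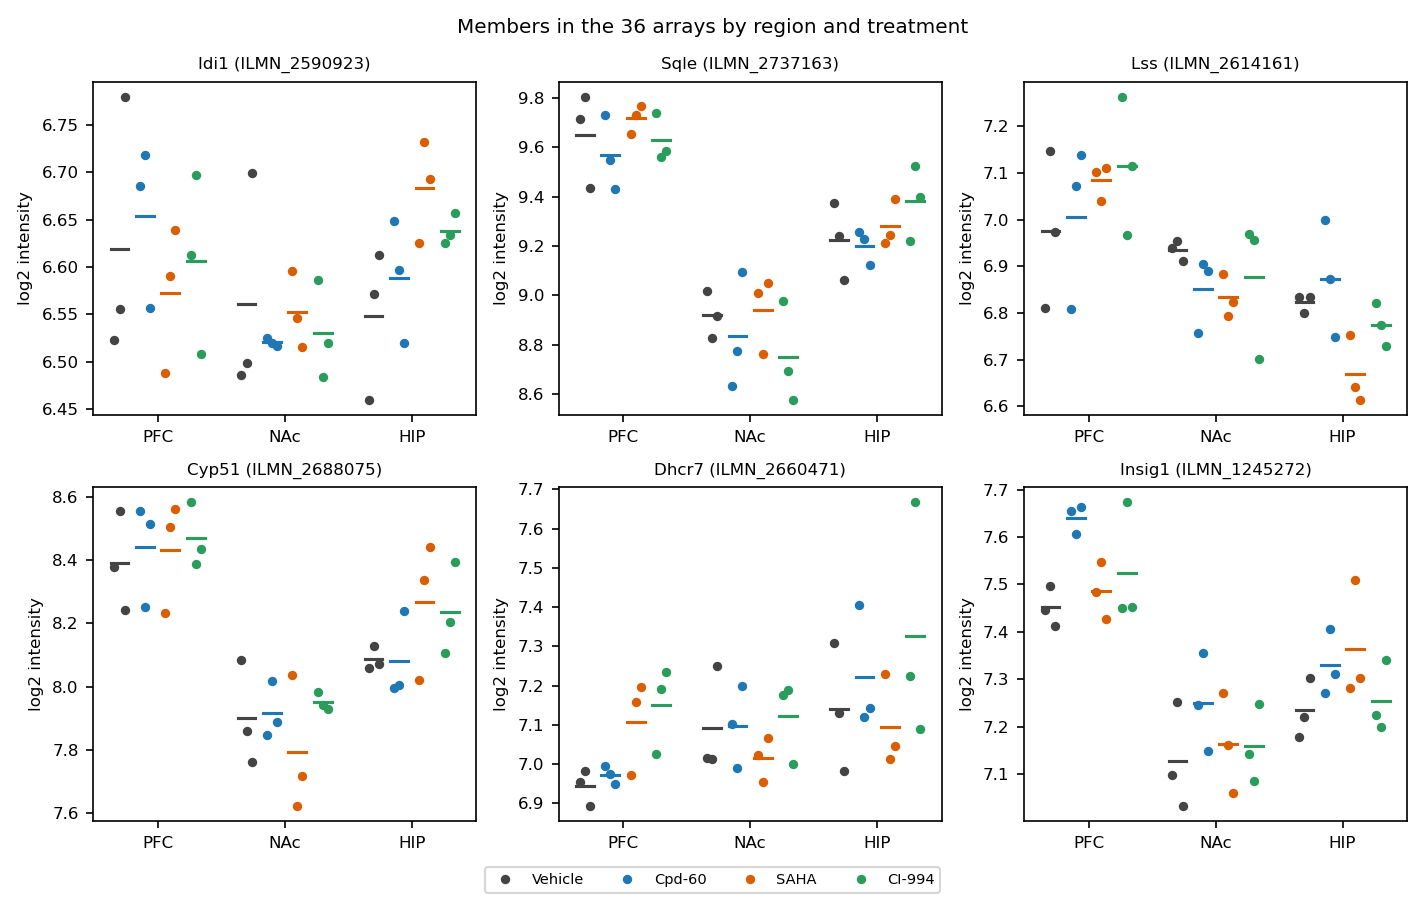
Log2 intensity of the brightest tested probe of each of the 6 measured members (y axis, own scale for each gene) by region and treatment (x axis). Points are the 3 arrays of a group and bars their mean. Sqle, Cyp51 and Insig1 were highest in PFC and lowest in NAc under every treatment, while the order for Dhcr7 changed with treatment, and Idi1 stayed near background.

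**Figure D2:**
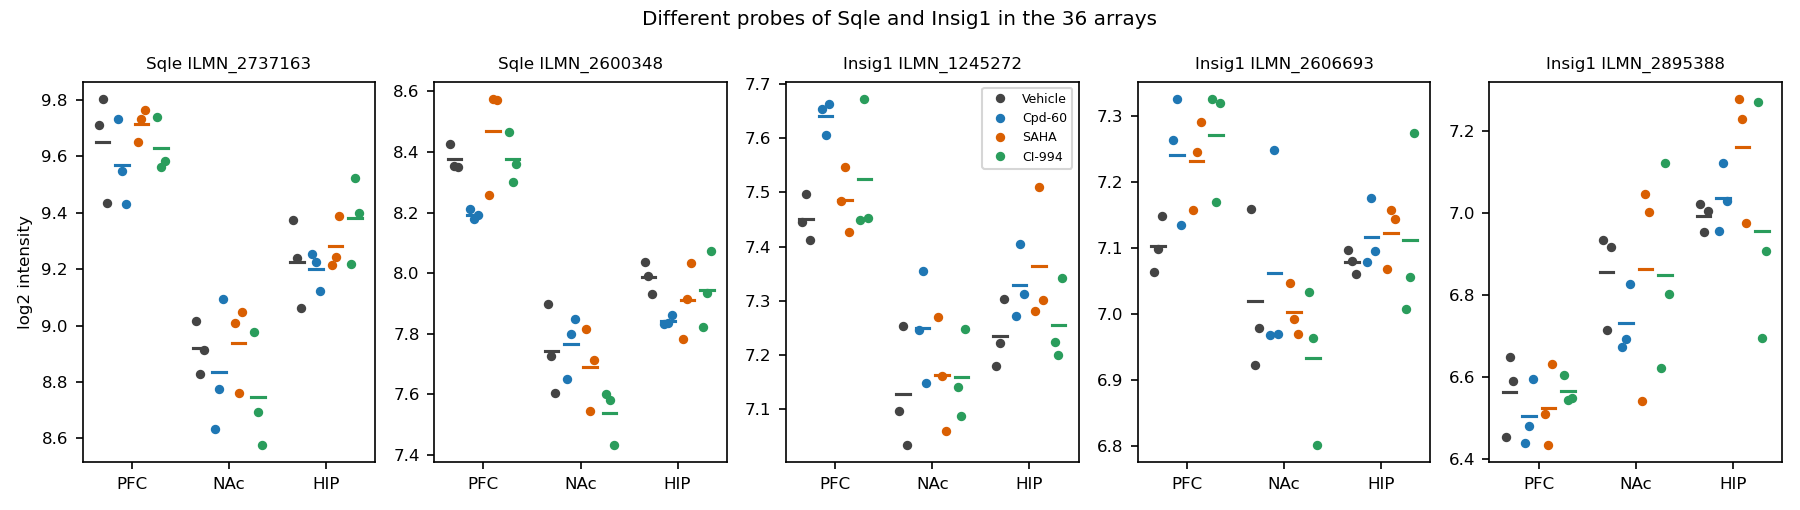
Log2 intensity (y axis, own scale for each probe) of 2 Sqle probes and 3 Insig1 probes by region and treatment (x axis). Points are arrays and bars are means of 3. The Sqle probes gave the same region order, and Insig1 probe ILMN_2895388 was highest in HIP, where the other Insig1 probes were below their PFC level.

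Counted over the members, 3 of 6 were called lower and 0 higher in NAc than in PFC under vehicle at an adjusted p below 0.05. Of all probes 15.2% were called in that comparison and 8.5% were called lower. In HIP against PFC 2 of 6 were called lower and 0 higher, beside 20.4% of all probes called and 10.1% called lower. In HIP against NAc 0 of 6 members were called by limma and 13.3% of all probes, and 1 member had an unadjusted p below 0.05, as had 24.5% of all probes. The median difference of the 6 members under vehicle was -0.19 in NAc and -0.19 in HIP relative to PFC, beside medians of -0.004 and -0.02 over all probes. These counts and medians include Idi1, whose probe was near background. A detection filter of p at most 0.01 left 5 members, and their NAc median was -0.32. With neqc the medians of the 6 were -0.39 in NAc and -0.40 in HIP.

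Averaged over the 4 treatments, 4 of 6 members were lower and 0 higher in NAc than in PFC, where 42.2% of all probes were called and 21.4% were called lower. In HIP against PFC 4 were lower and 1, Dhcr7, was higher, beside 47% of all probes called, 26.4% lower and 20.6% higher. In HIP against NAc 3 were higher and 0 lower, beside 33.5% called and 15.5% higher. The averaged comparisons therefore called a large part of the array, and the members' counts are to be read against those shares. These p-values measure the spread between pools of mice. In such bulk tissue fewer cells of a type and less RNA per cell cannot be told apart.

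**Figure D3:**
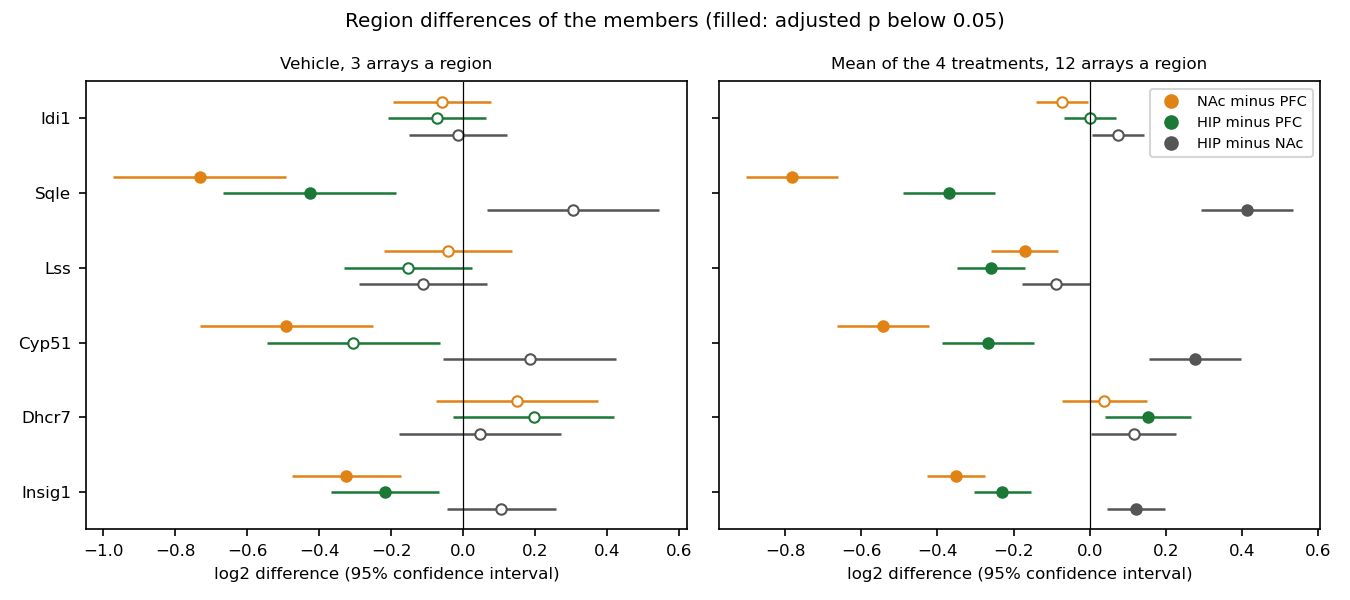
Log2 difference between regions (x axis) for each measured member (y axis), under vehicle and averaged over the 4 treatments. Points are limma estimates, filled where the adjusted p was below 0.05, and bars are 95% confidence intervals. Sqle, Cyp51 and Insig1 lie to the left of 0 in NAc and in HIP relative to PFC, and Dhcr7 lies to the right in HIP.

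The other enzymes of the route were then read from a list of 13 genes, of which 12 were tested. Under vehicle 6 of the 12 were lower in NAc than in PFC and 0 were higher, with a list median of -0.30, where 8.5% of all probes were called lower and 6.71% higher. Among them were Fdps, which makes farnesyl diphosphate (-0.70, adjusted p = 8.35e-04), and the sterol reductase Hsd17b7 (-0.67, adjusted p = 4.85e-05). In HIP 3 were lower than in PFC, among them Hsd17b7 (-0.43) and the C4-demethylation enzyme Nsdhl (-0.39). The sterol isomerase Ebp went the other way in HIP, at 0.68 (adjusted p = 1.92e-04). Averaged over treatments 9 were lower and 1 higher in NAc, and 6 were lower and 1 higher in HIP, beside 21.4% of all probes called lower and 20.7% higher in NAc, and 26.4% and 20.6% in HIP. Ebp was the gene that was higher in each case.

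**Figure D4:**
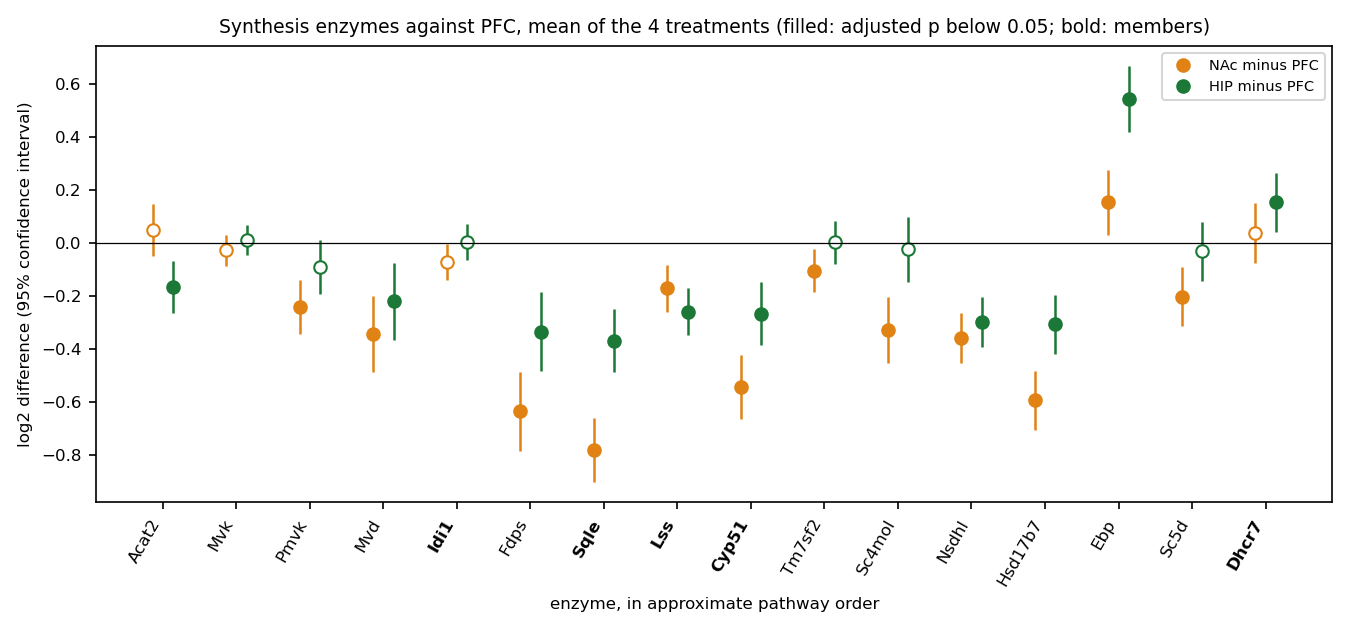
Log2 difference from PFC averaged over the 4 treatments (y axis, with 95% confidence intervals) for synthesis enzymes in approximate pathway order (x axis, members in bold), in NAc and HIP. Filled points passed an adjusted p of 0.05. Most filled points lie below 0, Sqle at -0.78 in NAc among them, while Ebp lies above 0 in NAc and HIP and Dhcr7 above 0 in HIP.

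Of the 6 tested genes that sense sterol, averaged over treatments, 1 was lower and 2 higher in NAc than in PFC, and 2 were lower and 1 higher in HIP, shares near those of all probes just given. Srebf2, which encodes SREBP-2, was lower in NAc (-0.27, adjusted p = 2.08e-04) and in HIP (-0.27, adjusted p = 2.34e-04). Mbtps1, the protease that makes the opening cut in SREBP, was higher in NAc (0.39, adjusted p = 5.27e-06) and lower in HIP (-0.16, adjusted p = 0.0252). Scap, the SREBP escort, was higher in HIP (0.21, adjusted p = 0.00751).

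Uptake and transport genes were measured through 5 tested genes of 6. Vldlr, a lipoprotein receptor, was higher in NAc than in PFC under vehicle (0.79, adjusted p = 1.61e-05) and averaged over treatments (0.74), and was higher in HIP (0.27, adjusted p = 4.44e-04, averaged). Lrp8, the related reelin and lipoprotein receptor, was lower in NAc (-0.35, adjusted p = 1.19e-07) and in HIP (-0.13, adjusted p = 0.0128). Npc2, which carries cholesterol out of lysosomes, was higher in NAc (0.25) and in HIP (0.44). Of the efflux, storage and turnover list, 7 of 8 genes were tested. Averaged over treatments Cyp46a1, the neuronal enzyme that turns cholesterol into 24-hydroxycholesterol for export, was lower in HIP than in PFC (-0.95, adjusted p = 1.84e-05), and Nr1h2, an oxysterol receptor, was lower in NAc (-0.36) and in HIP (-0.45). Of 8 tested fatty acid genes Scd1, a desaturase, was higher in HIP (0.88, adjusted p = 6.68e-06) and in NAc (0.38, adjusted p = 0.0313). Acly, which supplies acetyl-CoA, was lower in HIP (-0.31, adjusted p = 2.96e-06) and higher in NAc (0.20, adjusted p = 6.78e-04). Averaged over treatments 42.2% of all probes were called in NAc against PFC and 47% in HIP against PFC. Under vehicle 15.2% were called in NAc against PFC. Calls of single genes from these lists were therefore common and are to be read against those shares.

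Cell type markers moved with region too. All 9 tested oligodendrocyte markers were higher in NAc and in HIP than in PFC, with averaged medians of 0.49 and 1.02, and their mean level per array ran from 8.86 to 9.45 in PFC, from 9.47 to 10.22 in NAc and from 10.15 to 10.53 in HIP. Sqle, Cyp51 and Insig1 at probe ILMN_1245272 were lower in NAc and in HIP than in PFC. Between HIP and NAc they ran the same way as these markers, with higher means in HIP. Insig1 probe ILMN_2895388 had the markers' order of HIP, NAc, PFC under each of the 4 treatments, though it was not above background in PFC. Averaged over treatments Dhcr7 was higher in HIP than in PFC, and Ebp was higher in NAc and in HIP. Of 4 tested neuron markers 3 were lower in NAc and 3 in HIP, averaged over treatments. Of 9 astrocyte markers 5 were lower and 1 higher in NAc, and 1 was lower and 6 were higher in HIP. The part of these cell types in the members' differences was not tested.

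The question the study put to these tissues was what chronic HDAC inhibition changes. Against vehicle, within a region, the main probes of the members gave 48 tests over the 9 pairs of drug and region, since Idi1 was tested in HIP only. None passed an adjusted p of 0.05 by limma, and 5 had an unadjusted p below 0.05. Of the 5, 1 was Idi1 in HIP under SAHA, and nothing is read from it, since its probe was detected on no HIP array and passed the filter there only through the SAHA and CI-994 groups. No probe of the whole array passed the adjusted threshold in any of the 9 comparisons, so the share called was 0%. The largest difference was 0.21 in size on the log2 scale, and the widest bound of a 95% confidence interval was 0.49. Standard errors ran from 0.06 to 0.14. With neqc background correction the differences were larger: Lss under SAHA in HIP -0.50, Dhcr7 in PFC 0.48 under CI-994 and 0.39 under SAHA, and Insig1 under Cpd-60 in PFC 0.32. None of these passed (smallest adjusted p = 0.474, for Lss). None of the 5 was in NAc, where 4.77%, 2.05% and 1.99% of all probes had an unadjusted p below 0.05 under Cpd-60, SAHA and CI-994. In HIP these shares were 5.26%, 9.37% and 3.24%.

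Insig1 under Cpd-60, at probe ILMN_1245272, was 1 of the 5. In PFC it read 7.65, 7.61 and 7.66 under Cpd-60 and 7.45, 7.50 and 7.41 under vehicle, and the groups did not overlap, as for 9.68% of probes in that comparison. The difference was 0.19 (SE 0.07, unadjusted p = 0.0188, adjusted p = 0.923), and 5.19% of probes had an unadjusted p below 0.05. In NAc it read 7.25, 7.36 and 7.15 against 7.10, 7.25 and 7.03, and in HIP 7.27, 7.41 and 7.31 against 7.18, 7.22 and 7.30, with overlap in both. Averaged over the regions the difference was 0.14 (SE 0.04, unadjusted p = 0.00926, adjusted p = 0.387), in a comparison where 0.00376% of probes, a single probe, passed the adjusted threshold and 8.35% the unadjusted one. That number of probes rose to 104 with the animal pool as a random block, and to 410 without Cpd-60 pool 3. The Insig1 difference averaged over regions stayed between 0.11 and 0.16 when any 1 pool was left out.

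Dhcr7 was higher than vehicle in PFC under CI-994, at an unadjusted p only. It read 7.02, 7.19 and 7.23 under CI-994 against 6.95, 6.98 and 6.89 under vehicle, a difference of 0.21 (SE 0.07, unadjusted p = 0.0164, adjusted p = 1). The groups did not overlap, as for 10.7% of probes, and 3.98% of probes had an unadjusted p below 0.05. Under SAHA Dhcr7 read 6.97, 7.16 and 7.20 in PFC, a difference of 0.17 (unadjusted p = 0.0463, adjusted p = 1), where 2.25% of probes had an unadjusted p below 0.05. Averaged over regions the CI-994 difference was 0.14 (unadjusted p = 0.0331, adjusted p = 1), where 0.00376% of probes passed the adjusted threshold (17 probes with the animal pool as a random block) and 4.27% the unadjusted one, and it was 0.07 without CI-994 pool 2.

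In HIP fewer probes were detected on the 3 SAHA arrays (34.35%, 32.08% and 32.31%) than on the vehicle arrays (39.67%, 39.73% and 37.99%). The part of this in the differences was not tested. Under SAHA in HIP 9.37% of probes had an unadjusted p below 0.05. Lss read 6.75, 6.64 and 6.61 there against 6.84, 6.80 and 6.83 under vehicle, and the groups did not overlap, as for 19.3% of probes. It was not well above background on any of the 3 SAHA arrays, so the group means give only a bound, at least 1.01-fold lower. That bound carries no sampling error, and the fitted difference did not pass by limma (-0.15, unadjusted p = 0.0446, adjusted p = 0.527). In NAc Lss also lay wholly below vehicle under Cpd-60 (difference -0.08, unadjusted p = 0.298, 9.38% of probes not overlapping) and under SAHA (-0.10, unadjusted p = 0.217, 7.11% not overlapping). In PFC the fitted Lss differences were above 0 under all 3 drugs. Idi1 was not above background in HIP, where it read 6.63, 6.73 and 6.69 under SAHA and 6.46, 6.57 and 6.61 under vehicle, and no fold is given.

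No member's drug effect differed between regions at an adjusted p of 0.05, and neither did any of the 26594 probes, a share of 0%. The 3 drugs were given at different doses, and all were compared with the same vehicle arrays, so their values stand side by side and no drug was tested against another. Insig1 probe ILMN_1245272 differed from vehicle in PFC by 0.19 under Cpd-60, by 0.03 under SAHA and by 0.07 under CI-994. The second Insig1 probe, ILMN_2606693, averaged 7.24 under Cpd-60, 7.23 under SAHA and 7.27 under CI-994 in PFC, against 7.10 under vehicle. At that probe the PFC level was therefore not highest under Cpd-60. Sqle differed in PFC by -0.08, 0.07 and -0.02 under Cpd-60, SAHA and CI-994. The second Sqle probe, ILMN_2600348, differed in PFC by -0.18 under Cpd-60 (unadjusted p = 0.0461, adjusted p = 0.955). Among the other lists no gene passed the adjusted threshold against vehicle. Those with a low unadjusted p included the cholesterol exporter Abcg1 under Cpd-60 averaged over regions (0.39, SE 0.11, unadjusted p = 0.00395, adjusted p = 0.322) and the desaturase Scd2 under CI-994 in NAc (-0.44, unadjusted p = 0.00546, adjusted p = 1).

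**Figure D5:**
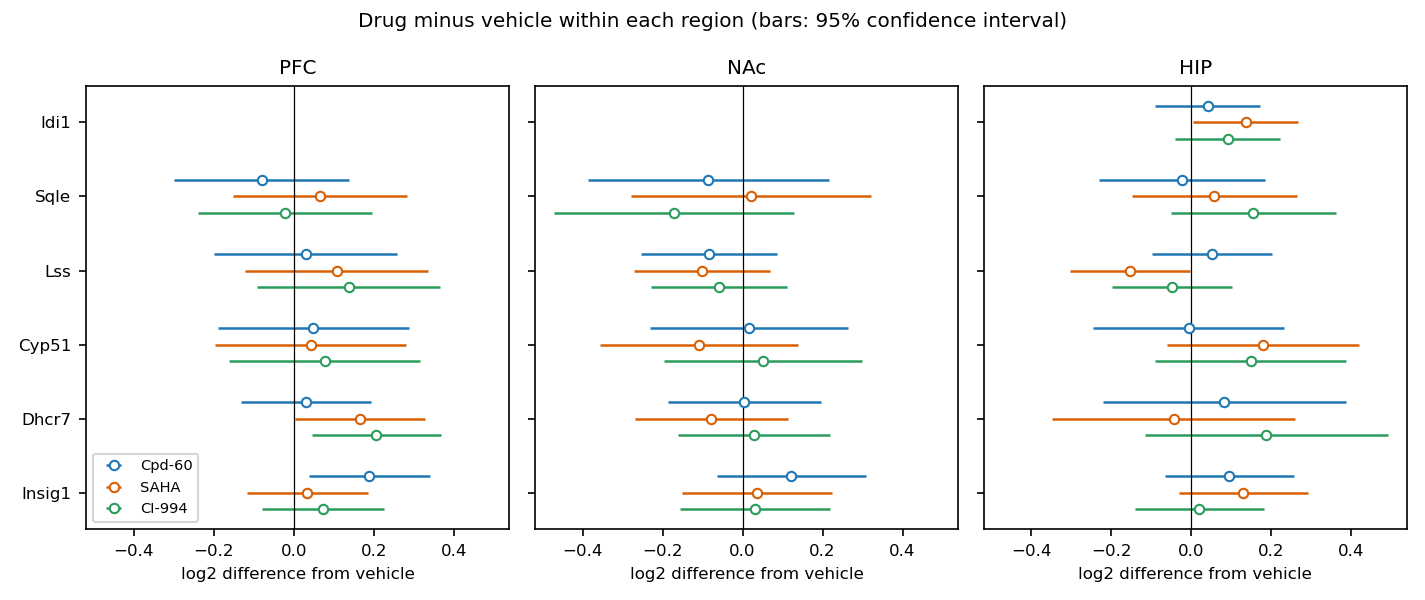
Log2 difference from vehicle (x axis) of each tested member (y axis; Idi1 in HIP only) under Cpd-60, SAHA and CI-994 in PFC, NAc and HIP. Points are limma estimates and bars 95% confidence intervals. Every estimate is at most 0.21 in size and none passed an adjusted p of 0.05.

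Within groups the correlations between members were mixed in sign. After the mean of its group was taken from each array, the 15 pairs of the 6 measured members correlated from -0.50 to 0.42 over 36 arrays, with a median of -0.02, and 7 pairs were above 0. Within regions, over 12 arrays each, the ranges were -0.35 to 0.66 in PFC, -0.76 to 0.62 in NAc and -0.84 to 0.58 in HIP. The brightest members, Sqle and Cyp51, correlated at 0.40 over the 36 arrays, and at 0.66, 0.35 and 0.22 within PFC, NAc and HIP. Idi1 was near background, and probes ILMN_1245272 and ILMN_2606693 of Insig1 itself correlated at only 0.05. Low values here therefore cannot show that members did not change together. The probes whose deviations were most like the members' mean over the 36 arrays were those of Cdo1 (r = 0.80), Ralgds (0.78), Pgrmc2 (0.78), 9630058J23Rik (0.77), Hel308 (0.76), 2810046L04Rik (0.75), Jtb (0.75), Mapk14 (0.75), Appl1 (0.75) and B3galnt1 (0.75). Of 26594 probes 1380 had r above 0.5, so a likeness of that size was common. These correlations are descriptions without a p, since arrays share mice, chips and normalization.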

How the data were processed

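RNA from pools of 2 mice was hybridized as biotinylated cRNA to Illumina MouseWG-6 BeadChips. The authors deposited raw probe intensity on a linear scale for 36 arrays, with a detection p-value per probe and array, and neither was normalized. Here the intensities were quantile normalized, floored at 1 and put on the log2 scale. Probes were kept for testing if some group had a detection p of 0.2 or less on each of its 3 arrays, which left 26594 of 45281 probes for the fit of 36 arrays (22156, 23242 and 23275 within PFC, NAc and HIP). Differences were tested with limma 3.58.1 in R 4.3.3, with Benjamini-Hochberg adjustment over all probes tested and a threshold of 0.05. A gene was followed by its probe of highest mean level, and its other probes were set beside it where they were above background. A probe is called detected on an array at a detection p of 0.01 or less. Precision is limited by how many arrays there are.

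The members, gene lists and tests were chosen with earlier results of these data known. All 6 measured members were named, and at most the 3 largest rises and 3 largest falls of another list were named in a comparison, among genes past the adjusted threshold or past an unadjusted p of 0.05 with 1.2-fold. The values of 1 gene of the lists are not reported here. Co-variation was computed over the 6 measured members rather than all 7. Regions of a pool came from the same mice. Same-numbered samples correlated from -0.46 to 0.56 across regions and from -0.42 to 0.86 across treatments. The numbers were therefore not taken to pair treatments in the main fits. Alternatives were neqc background correction (offset 16), other detection filters, the BeadChip or the animal pool as a block, and leaving out each array or pool. Others were the 27 arrays without CI-994 and analysis of variance with Tukey's HSD. In the replicate block, drug comparisons used the replicate number, which different mice share across treatments, and region comparisons used the animal pool. The fits were tested on simulated data. Promoters and gene positions came from RefSeq tables of GRCm38.p6, which gave no window for Sqle, and scripts ran in Python 3.11.15.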

Additional observations from a re-analysis of the deposited data

How the results depend on the processing

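Of 525 counts of members called under 9 alternatives and 48 settings that left out an array or pool, 521 stayed within 1.5 times the reported count. Most compared 0 with 0, since no drug comparison called a member, and a fall from 3 to 2 also stayed within 1.5 times. Of single calls of a member, 9 were lost when an array or pool was left out and 4 under the other alternatives. The counts beyond 1.5 times all belonged to HIP against PFC under vehicle, where 2 members were called. That count was 1 without a detection filter and 1 with the BeadChip as a random block, and it ran from 0 to 3 when 1 pool was left out, with 1 without vehicle pool 1 and 0 without vehicle pool 2. The count for NAc against PFC under vehicle ran from 2 to 3, with 2 without vehicle pool 2. No direction was reversed where a call had been made. Against vehicle, 0 of 2105 member values under the alternatives passed an adjusted p of 0.05, and the smallest was 0.157. With the animal pool as a replicate block, Idi1, detected on 2 of 36 arrays, passed in NAc against PFC and in HIP against NAc averaged over treatments (adjusted p = 0.0426 and 0.0462), from which nothing is read because its values were near background. The block changed no other call, and the counts of members called in these comparisons were 5 and 4. With neqc background correction the regional calls of the members were kept. Several differences grew by over 1.5 times, among them Insig1 between NAc and PFC averaged over treatments (-0.66), Lss in HIP under SAHA (-0.50) and Dhcr7 in PFC under CI-994 (0.48), while Sqle between NAc and PFC grew less (-0.90). Signal near background limits what Idi1 and Lss can show.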
